A study of Mus musculus with 16 samples.

Results

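Levels of 10 interferon-induced genes were followed in mouse liver, under 2 genotypes and 2 diets: Rsad2, Ifit1, Ifit2, Ifit3, Irf7, Usp18, Oasl2, Ifih1, Cxcl9 and Cxcl10. Each was taken by its gene symbol in the platform annotation, and where a gene had several probe sets the one with the highest mean over all arrays would stand for it. All 10 of 10 were measured, each by 1 probe set with a single symbol, among 19938 genes and 35556 probe sets on the array. In heterozygous livers 3 of them, Rsad2, Ifit3 and Cxcl10, were called higher on a high-fat diet, by 1.69-fold to 1.90-fold, as were 1.50% of all genes. The other 7 had positive differences that did not pass the test. The calls depended on single animals. With each array left out in turn 0 to 5 of the 10 were called, and 45 to 3446 of all genes. In wild-type livers none of the 10 passed the test, and neither did any other of the 19938 genes. Fits on each genotype alone called 6 genes in wild type and 7 in heterozygotes, with none of the 10 among them. For all 10 genes the lowest of the 4 group means was that of heterozygotes on control diet.

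Livers came from adult mice, 1 Affymetrix MoGene 1.0 ST array per animal, which measures transcripts with many short probes spread along each gene. The design crosses attenuated hedgehog signalling with a diet that makes the liver fatty. The 4 groups, of 4 animals each, were Gli2_Het mice on a high-fat diet (Het_HFD), Gli2_Het mice on a control diet (Het_control), wild-type mice on a high-fat diet (WT_HFD) and wild-type mice on a control diet (WT_control), all fed for 12 weeks. Gli2 is a transcription factor of the hedgehog pathway, and the heterozygotes carry 1 null copy and keep the other. The genotype label of the wild-type animals reads Gli1_WT, whereas the series text names Gli2 only, and they are treated here as wild type. Neither sex, strain nor the make-up of the diets is stated in the labels. Animals are numbered in the order of the records, and equal numbers in different groups pair no animals.

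Interferons are secreted proteins that cells release when they sense foreign nucleic acid or, for interferon gamma, when T cells and NK cells are activated. Type I interferons signal through the Ifnar receptor and the kinases Jak1 and Tyk2 to a transcription factor complex that binds a DNA element called the interferon-stimulated response element (ISRE). Interferon gamma signals through its own receptor and acts on a different element called GAS. In liver both hepatocytes and resident macrophages, the Kupffer cells, can respond.

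The 10 genes cover several steps of that response. Ifih1 encodes Mda5, a cytosolic sensor of long double-stranded RNA. Irf7 is the transcription factor that amplifies type I interferon production. Rsad2 encodes viperin, an enzyme that restricts many viruses. Ifit1, Ifit2 and Ifit3 are antiviral proteins with tetratricopeptide repeats that act on foreign RNA and on translation, and lie together on chromosome 19. Oasl2 belongs to the family of oligoadenylate synthetases. Usp18 removes Isg15 from proteins and dampens signalling at the type I receptor. Cxcl9 and Cxcl10, both on chromosome 5, are secreted chemokines that draw T cells and NK cells through the receptor Cxcr3.

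The stretches of promoter that hold the ISRE core in the genes with the largest differences are shown here, because this element is where the type I pathway acts on its target genes. The core searched was GAAANNGAAA, which reads TTTCNNTTTC on the opposite strand. Windows ran from 250 bases before to 50 bases after each annotated transcription start, with sequences from RefSeq on GRCm38.p6. Capitals mark the core, and each stretch is written 5′ to 3′ on the strand of its gene.
Rsad2: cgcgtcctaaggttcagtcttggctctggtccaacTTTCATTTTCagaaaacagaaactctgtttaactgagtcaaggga
Cxcl10: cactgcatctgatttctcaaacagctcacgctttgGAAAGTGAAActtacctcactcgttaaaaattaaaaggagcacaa
Ifit3: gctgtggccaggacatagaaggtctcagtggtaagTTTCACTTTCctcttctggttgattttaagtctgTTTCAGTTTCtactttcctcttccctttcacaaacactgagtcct
Ifit1: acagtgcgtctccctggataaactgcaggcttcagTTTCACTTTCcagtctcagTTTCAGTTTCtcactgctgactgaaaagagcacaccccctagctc

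The Rsad2 stretch is chr12:26456528-26456607 on the minus strand, and its core begins at position -120 from the start. The Cxcl10 stretch is chr5:92349058-92349137 on the minus strand, and its core begins at -213. The Ifit3 stretch is chr19:34583338-34583451 on the plus strand and holds the core 2 times, from -156 and -122. The Ifit1 stretch is chr19:34640750-34640848 on the plus strand and holds it 2 times as well, from -104 and -85. In these 2 genes of the Ifit cluster the cores have the same letters in the same order, TTTCACTTTC and then TTTCAGTTTC.

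A promoter window was given for 9 of the 10 genes, all but Usp18, and 5 held the ISRE core, the fifth being Ifih1, where it begins at position 33, past the start. The core was found in 3.99% of the 27018 genes with a window. It was not found in these windows of Cxcl9, Ifit2, Irf7 and Oasl2. A second motif, the GAS core TTCNNNGAA, which reads the same on both strands, was found in 9.55% of all genes with a window and among the 9 in Ifit2, at -241. No overlap of the motifs occurred in the windows of these genes. A match describes these letters only.

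All levels are log2 RMA values, on which 1 unit is a doubling, and they are relative within a gene: levels of different genes are not set against each other. In bulk liver a lower level from fewer cells of a type and from less RNA per cell cannot be told apart. The Het_control 2 array stood apart from the rest. Its correlation with the other arrays across genes was 0.961 to 0.979, against 0.991 to 0.998 among the others. Its interquartile range was 2.35, and that of the other arrays 2.64 to 2.80. It was kept, and the main results that use its group are also given with this array left out. Markers of hepatocytes were high in all 4 groups, with list means of 13.42 to 13.65. The Gli2 probe set, which does not check the genotype where the deleted part is not given, differed between heterozygotes and wild type by 0.13 on control diet (limma adjusted p = 0.4466) and by 0.02 on high-fat diet (adjusted p = 0.9996).

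In heterozygotes Rsad2, Ifit3 and Cxcl10 rose on the high-fat diet, and none of the 10 fell. That is, 3 were called higher and 0 lower at an adjusted p under 0.05 over all 19938 genes (limma, Benjamini-Hochberg), where 1.50% of all genes were called higher. In all, 442 genes were called, 300 higher and 142 lower, and 480 higher and 95 lower once each array was centred on its own median. Of the 10, 7 had an unadjusted p under 0.05, as did 31.6% of all genes. All 10 differences were positive, with a median of 0.55, against a median of -0.05 over all genes. Without Het_control 2 the median of the 10 was 0.35 and 2 of them were called, as were 174 of all genes.

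**Figure D1:**
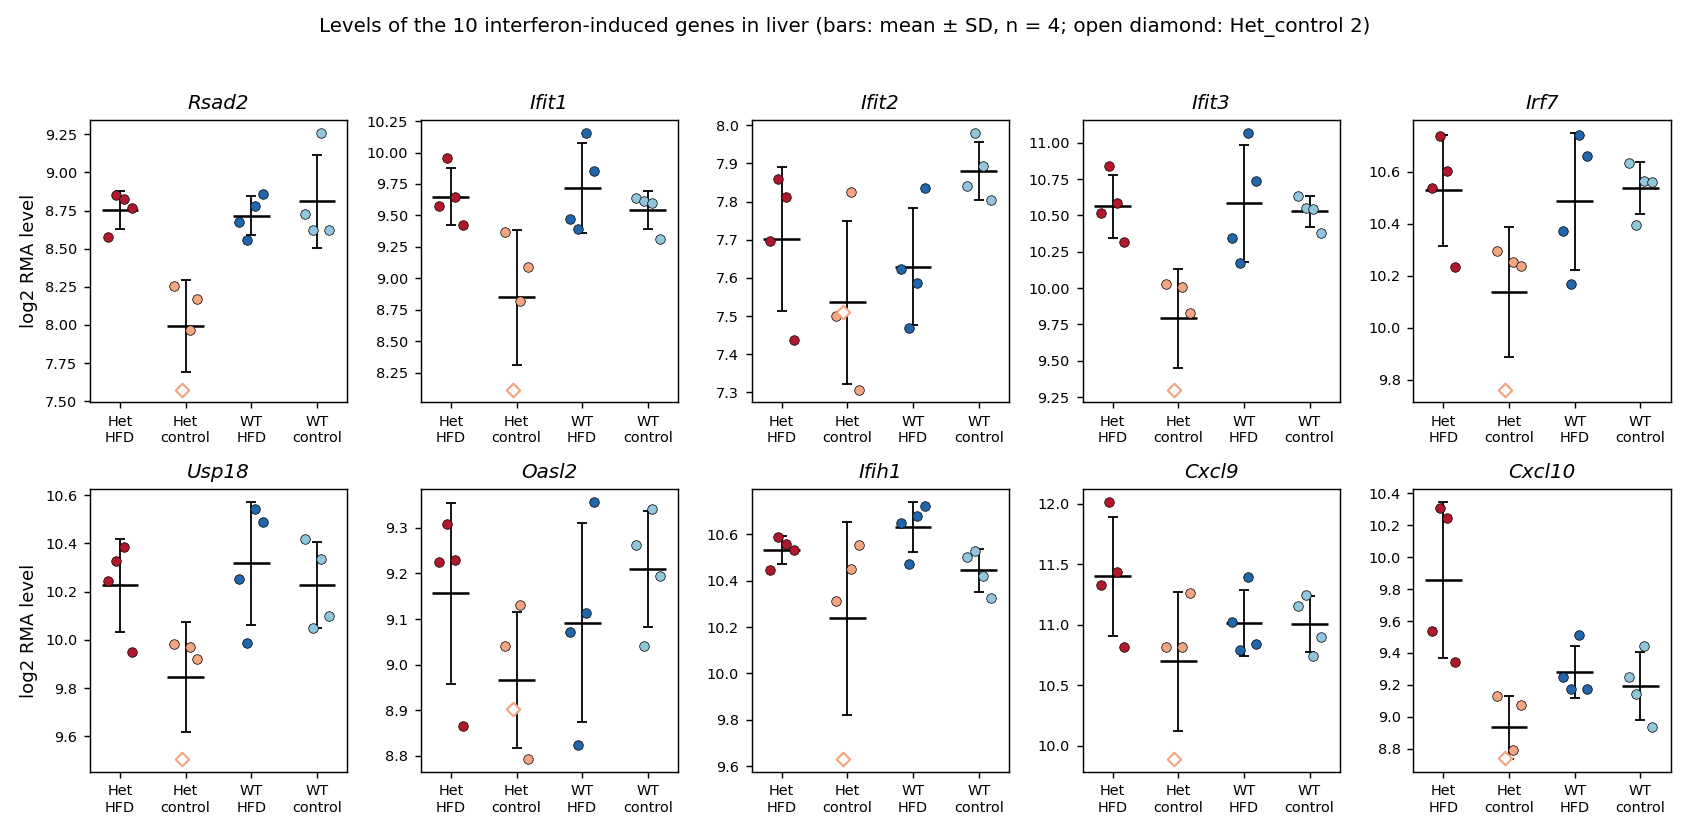
Log2 RMA level of each of the 10 interferon-induced genes in each liver, grouped as Het_HFD, Het_control, WT_HFD and WT_control. Points are animals, bars are the mean ± SD over 4 animals, and the open diamond is Het_control 2. The heterozygotes on control diet hold the lowest mean in all 10 panels, and for Rsad2 all 4 of them, at 7.58 to 8.26, lie below the other 12 livers.

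Rsad2, the viperin gene, read 8.58, 8.85, 8.82 and 8.76 in Het_HFD livers, against 8.26, 7.58, 7.97 and 8.17 in Het_control livers. In wild type it read 8.67, 8.56, 8.78 and 8.86 in WT_HFD livers, against 8.73, 8.62, 9.26 and 8.62 in WT_control livers. The 4 Het_control livers were the lowest 4 of all 16, and the 2 heterozygous groups did not overlap. Rsad2 rose by 0.76 in heterozygotes on the high-fat diet (SE 0.15, 1.69-fold, limma adjusted p = 0.02223). Without Het_control 2 the difference was 0.62 (limma adjusted p = 0.03442).

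Of the Ifit genes, Ifit3 passed the test. It read 10.52, 10.84, 10.58 and 10.31 in Het_HFD livers, against 10.03, 9.30, 10.01 and 9.83 in Het_control livers, again without overlap. In wild type it read 10.35, 10.17, 11.07 and 10.74 in WT_HFD livers, against 10.63, 10.55, 10.55 and 10.38 in WT_control livers. The spread of the WT_HFD livers was wide, with animals on both sides of all WT_control livers. Ifit3 rose by 0.77 in heterozygotes (SE 0.18, 1.71-fold, limma adjusted p = 0.04071). This call was not kept without Het_control 2, where the difference was 0.61 (limma adjusted p = 0.07091).

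Ifit1 read 9.58, 9.95, 9.64 and 9.42 in Het_HFD livers, against 9.36, 8.12, 8.82 and 9.09 in Het_control livers. Every Het_HFD liver was above every Het_control liver, though the gap between 9.42 and 9.36 was small. In wild type it read 9.47, 9.39, 10.16 and 9.85 in WT_HFD livers, against 9.64, 9.62, 9.60 and 9.31 in WT_control livers. Its difference in heterozygotes, 0.80 (SE 0.21, 1.74-fold), did not pass the test (limma adjusted p = 0.05412), and it was 0.56 without Het_control 2 (limma adjusted p = 0.09989). Ifit2 differed least of the 3, by 0.17 (SE 0.11, limma adjusted p = 0.2751), with a 95% interval of -0.06 to 0.40, and by 0.16 without Het_control 2. Its levels were 7.44 to 7.86 in Het_HFD livers, against 7.31 to 7.83 in Het_control livers, so most of the 2 ranges was shared.

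Of the chemokines, Cxcl10 read 9.54, 10.31, 10.24 and 9.34 in Het_HFD livers, against 9.13, 8.74, 8.79 and 9.07 in Het_control livers. In wild type it read 9.25, 9.18, 9.52 and 9.18 in WT_HFD livers, against 9.25, 9.15, 9.44 and 8.94 in WT_control livers. Het_HFD 2 and Het_HFD 3 stood well above the remaining 14 livers, and Het_HFD 4 was below the highest wild-type livers. Cxcl10 rose by 0.92 in heterozygotes (SE 0.18, 1.90-fold, limma adjusted p = 0.0245), and by 0.86 without Het_control 2 (limma adjusted p = 0.04764).

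Cxcl9 differed by 0.70 in heterozygotes with a larger error (SE 0.25, limma adjusted p = 0.1005) and did not pass. It read 11.33, 12.01, 11.43 and 10.82 in Het_HFD livers, against 10.82, 9.89, 10.82 and 11.26 in Het_control livers. The highest reading, 12.01, was that of Het_HFD 2 and the lowest, 9.89, that of Het_control 2. Without Het_control 2 the difference was 0.43 (limma adjusted p = 0.2861).

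Irf7, the amplifying transcription factor, read 10.54, 10.74, 10.60 and 10.24 in Het_HFD livers, against 10.29, 9.76, 10.25 and 10.24 in Het_control livers. Het_HFD 4 lay among the Het_control livers, so the groups overlapped. The difference of 0.39 did not pass (SE 0.14, limma adjusted p = 0.09556), and it was 0.27 without Het_control 2. Usp18, the deISGylase, read 10.24, 10.33, 10.38 and 9.95 in Het_HFD livers, against 9.98, 9.51, 9.97 and 9.92 in Het_control livers. There too Het_HFD 4 fell within the range of the control diet, and the difference of 0.38 did not pass (SE 0.14, limma adjusted p = 0.09851). Without Het_control 2 it was 0.27.

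The sensor gene Ifih1 differed by 0.29 in heterozygotes (SE 0.14, limma adjusted p = 0.1595), and by 0.09 without Het_control 2 (limma adjusted p = 0.5031). Its Het_HFD livers read 10.45 to 10.59, against 10.31, 9.63, 10.45 and 10.55 in Het_control livers, so that the single low array carried most of the difference. Oasl2 differed by 0.19 (SE 0.12, limma adjusted p = 0.2431; 0.17 without Het_control 2), with 8.86 to 9.31 in Het_HFD livers, against 8.79 to 9.13 in Het_control livers.

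In heterozygotes the livers of the 2 diets did not overlap for 4 of the 10 genes, Rsad2, Ifit1, Ifit3 and Cxcl10, which were higher on the high-fat diet, also without Het_control 2. Over all genes 6.58% were higher without overlap.

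**Figure D2:**
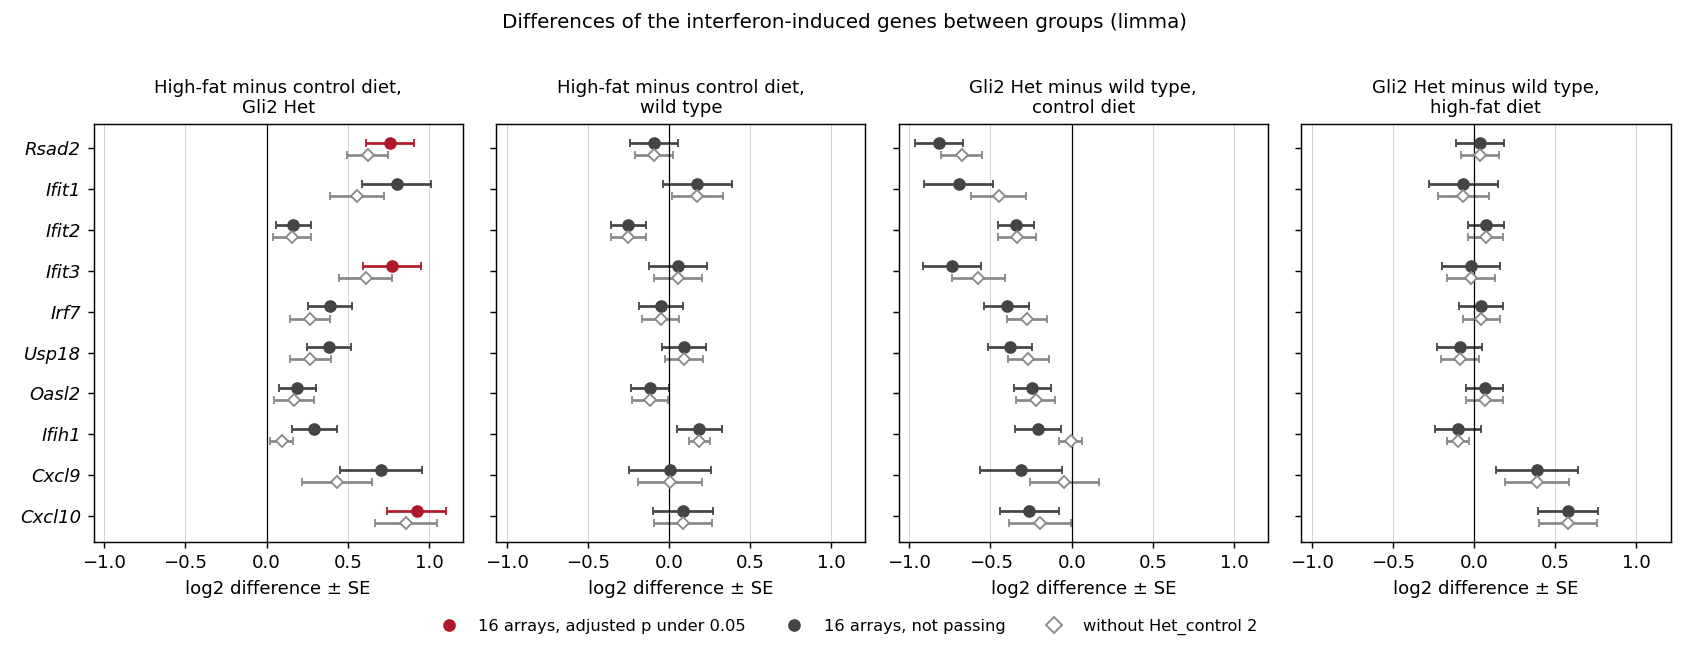
Log2 difference with its SE for each gene in 4 comparisons: high-fat minus control diet in Gli2 Het and in wild type, and Gli2 Het minus wild type on control diet and on high-fat diet. Red circles passed an adjusted p under 0.05 over all genes with 16 arrays, dark circles did not, and open diamonds leave out Het_control 2. The 3 red points are Rsad2 at 0.76, Ifit3 at 0.77 and Cxcl10 at 0.92, all for diet in heterozygotes.

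Single animals decided how many of the 10 were called, and the count over all genes moved as well. With each array left out in turn, the count ran between 0 and 5 of the 10. It was 0 without Het_HFD 2 or without Het_HFD 3, where 50 and 45 of all genes were called, against 442 with all arrays. It was 1 without Het_control 3 or Het_HFD 4 (139 and 52 of all genes), and 5 without Het_control 4 (3446 of all genes). Without WT_control 1, which enters no difference between the heterozygous groups, 121 of all genes were called and Ifit3 was not. Rsad2 and Cxcl10 were each called in 13 of these 16 fits, and Ifit3 in 6 of 16. A fit on the 8 heterozygous arrays alone called 0 of the 10 genes and 7 of all genes, with Rsad2 at limma adjusted p = 0.1114, Ifit3 at 0.1391 and Cxcl10 at 0.1619. Over all 25 alternatives the limma adjusted p ran between 0.003076 and 0.1114 for Rsad2, 0.005747 and 0.1391 for Ifit3, and 0.003076 and 0.1619 for Cxcl10.

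Each sample title carries a number that the labels do not explain, and in each group 1 pair of arrays has it in common. In heterozygotes no number occurs on both diets, so an effect tied to it and the diet cannot be told apart. Het_HFD 2 and Het_HFD 3, which share the number 39, were the highest 2 of their group for all 10 genes, whereas over all genes such a pair was highest in 11%. WT_HFD 3 and WT_HFD 4, which share 30, were the highest of their group for 7 of the 10 genes, against 22.7% of all genes. The pairs on control diet were not high in this way. Het_control 2 and Het_control 3, which share 55, were the highest for 1 gene and the lowest for 3, against 14.7% of all genes lowest. WT_control 2 and WT_control 4, which share 42, were the highest for 0 genes and the lowest for 5, against 21.1% of all genes lowest. When arrays of a group with the same number were averaged first, an alternative chosen after seeing the data, 0 of the 10 genes were called. Of all genes 171 were called, against 442 without averaging. The differences were then 0.66 for Rsad2 (limma adjusted p = 0.06112), 0.68 for Ifit3 (limma adjusted p = 0.06112) and 0.73 for Cxcl10 (limma adjusted p = 0.07215). With the number as a random block, whose estimated correlation was -0.37, 8 of the 10 were called, but so were 6938 of all genes.

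**Figure D3:**
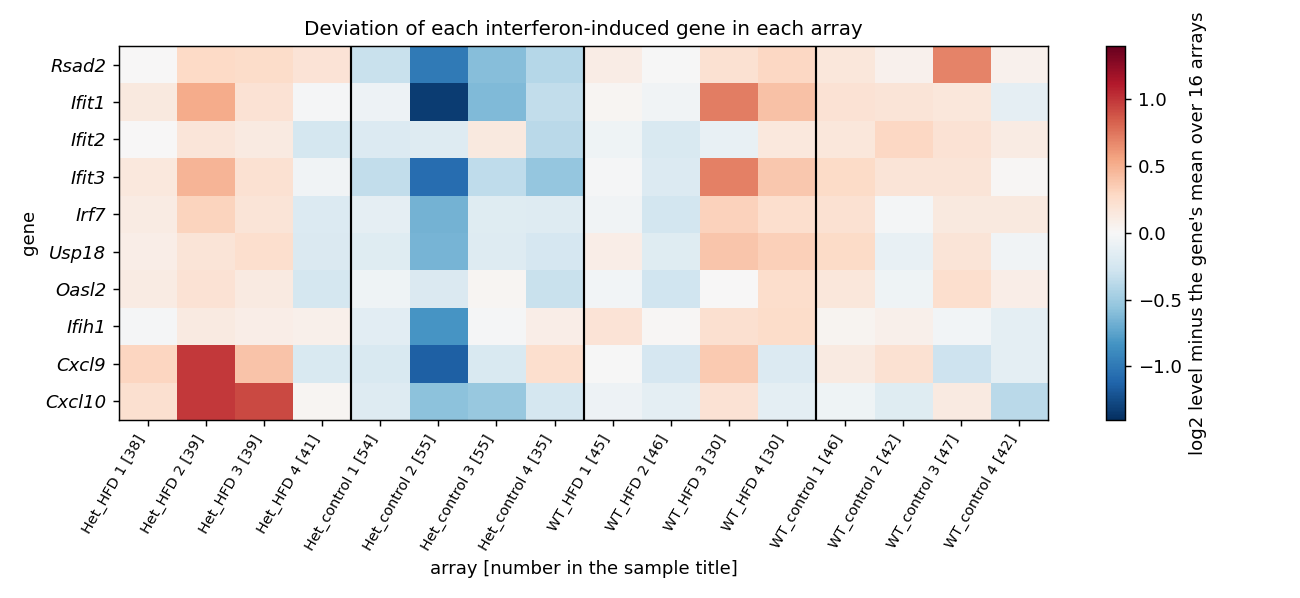
Log2 level of each gene in each array minus that gene's mean over 16 arrays, with arrays on the horizontal axis in the order Het_HFD, Het_control, WT_HFD and WT_control and the title number in brackets. Red is above and blue below the mean. Het_HFD 2 and 3 (title number 39) are red throughout, WT_HFD 3 and 4 (title number 30) for most genes, and Het_control 2 is blue for all 10.

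On the control diet the heterozygotes were below wild type in value for all 10 genes, without any passing the test. No gene of the 19938 was called by limma in this comparison (0.00%), while 3135 (15.7%) had an unadjusted p under 0.05. Of the 10 genes, 7 had a difference below 0 at an unadjusted p under 0.05, where 6.73% of all genes did. The median of the 10 was -0.36, against 0.04 over all genes, and -0.27 without Het_control 2. This comparison and that of diet in heterozygotes use the same 4 Het_control livers, so the same low readings enter both.

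Rsad2 had the smallest p of all 19938 genes in this comparison, with a difference of -0.82 (SE 0.15, 0.57-fold, limma adjusted p = 0.2788). Without Het_control 2 the difference was -0.68 (limma adjusted p = 0.2473), and the adjusted p was under 0.05 in 1 of 25 alternatives, without Het_control 4 (limma adjusted p = 0.0478). Ifit3 differed by -0.74 (SE 0.18, limma adjusted p = 0.2788), and by -0.57 without Het_control 2. Ifit1 differed by -0.69 (SE 0.21, limma adjusted p = 0.2788), and by -0.45 without that array.

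Irf7 differed by -0.40 (SE 0.14, limma adjusted p = 0.2853), and Het_control livers at 9.76 to 10.29 did not overlap WT_control livers at 10.39 to 10.63. Usp18 differed by -0.38 (SE 0.14, limma adjusted p = 0.2872), with 9.51 to 9.98 in Het_control livers, against 10.05 to 10.42 in WT_control livers. Ifit2 differed by -0.34 (SE 0.11, limma adjusted p = 0.2788), and its groups overlapped through Het_control 3 at 7.83. For 4 of the 10 genes, Rsad2, Ifit3, Irf7 and Usp18, every Het_control liver was below every WT_control liver, also without Het_control 2. Over all genes 2.10% were lower without overlap.

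Oasl2 differed by -0.24, Cxcl9 by -0.31, Cxcl10 by -0.26 and Ifih1 by -0.21, with limma adjusted p of 0.3168, 0.4645, 0.4085 and 0.3964. Without Het_control 2 the differences of Cxcl9 and Ifih1 were -0.04 and -0.01, so for this pair the low mean of heterozygotes on control diet came mostly from 1 array.

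The order of the group means repeats this. Heterozygotes on control diet had the lowest mean for 10 of the 10 genes, with and without Het_control 2, and they had the lowest mean for 29.8% of all genes, or 23.1% without that array. The step to the next group was larger than the larger of both SDs for 6 genes: Rsad2, Ifit1, Ifit3, Irf7, Usp18 and Cxcl10. Rsad2 averaged 8.75 ± 0.12 in Het_HFD livers and 7.99 ± 0.30 in Het_control livers (SD, n = 4 each), with 8.72 ± 0.13 in WT_HFD livers and 8.81 ± 0.30 in WT_control livers. Ifit1 averaged 9.65 ± 0.22 in Het_HFD livers and 8.85 ± 0.54 in Het_control livers, with 9.72 ± 0.36 in WT_HFD livers and 9.54 ± 0.15 in WT_control livers. Among the upper 3 groups, neighbouring means differed by more than the larger SD for Cxcl10 and for no other of the 10 genes.

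Cxcl10 had another order at the top. It averaged 9.86 ± 0.49 in Het_HFD livers, 8.93 ± 0.20 in Het_control livers, 9.28 ± 0.16 in WT_HFD livers and 9.19 ± 0.21 in WT_control livers (SD, n = 4 each), so Het_HFD was above the next group by more than either SD. Cxcl9 was also highest in Het_HFD livers, at 11.40 ± 0.49, against 11.01 ± 0.27 in WT_HFD livers, a gap within their spread. The highest mean was in WT_HFD for Ifit1, Ifit3, Usp18 and Ifih1, and in WT_control for Rsad2, Ifit2, Irf7 and Oasl2.

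In wild-type livers the high-fat diet called none of the 10 genes, nor any of the 19938 genes (0.00%), with 1282 at an unadjusted p under 0.05. Other fits did call genes: 6 on the wild-type arrays alone, 40 with title numbers as a random block and 219 with arrays weighted by quality. None of the 10 was among them. The 10 differences lay between -0.25 and 0.19, with a median of 0.03. Rsad2 differed by -0.09, with a 95% interval of -0.40 to 0.22, against 0.76 in heterozygotes, with an interval of 0.45 to 1.07. The difference between these responses did not pass the direct test given below (limma adjusted p = 0.2998). In wild type Cxcl10 differed by 0.09, with an interval of -0.30 to 0.47, and Ifit3 by 0.05, with an interval of -0.32 to 0.43. Ifit2 was the single gene of the 10 at an unadjusted p under 0.05, at -0.25 (SE 0.11, limma adjusted p = 0.7417), with 7.47 to 7.84 in WT_HFD livers, against 7.80 to 7.98 in WT_control livers.

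On the high-fat diet the differences between heterozygotes and wild type were small in value for 8 of the 10 genes, between -0.10 and 0.07, with a median of 0.04 over the 10. None was called by limma, and 1 gene of 19938 (0.00502%) was. For Rsad2 the difference was 0.04, with a 95% interval of -0.27 to 0.34, and for Ifit3 -0.02, with an interval of -0.40 to 0.36. Cxcl10 differed most, by 0.58 (SE 0.18, 1.49-fold, limma adjusted p = 0.9291, unadjusted p = 0.00555). Its livers overlapped, with 9.34 to 10.31 in Het_HFD, against 9.18 to 9.52 in WT_HFD. Cxcl9 differed by 0.39 (SE 0.25, limma adjusted p = 0.9996).

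Whether the response to diet differed between the genotypes was tested directly, as the diet difference in heterozygotes minus that in wild type. No gene was called (0.00% of 19938), and 1621 had an unadjusted p under 0.05. All 10 interactions were above 0, with a median of 0.54 against -0.03 over all genes (0.40 without Het_control 2, when 9 were above 0), and 5 of the 10 were above 0 at an unadjusted p under 0.05, where 4.16% of all genes were. Rsad2 had the largest, 0.85 (SE 0.21, 95% interval 0.42 to 1.29, limma adjusted p = 0.2998). Cxcl10 followed with 0.84 (SE 0.26, limma adjusted p = 0.4123) and Ifit3 with 0.72 (SE 0.25, limma adjusted p = 0.4745). The interactions of Ifit2 and Irf7 were 0.42 and 0.44, and that of Ifih1, 0.11, was -0.09 without Het_control 2. A larger response in heterozygotes was therefore not shown for any of these genes after adjustment.

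Averaged over both genotypes, the high-fat diet called 371 genes (1.86%) and none of the 10, of which 6 had an unadjusted p under 0.05, as did 26.9% of all genes. Cxcl10 came nearest, at 0.50 (SE 0.13, limma adjusted p = 0.05393). Ifit3 stood at 0.41 (SE 0.13, limma adjusted p = 0.08851), Ifit1 at 0.49 and Rsad2 at 0.33 (limma adjusted p = 0.08922 for both). The median of the 10 was 0.29, or 0.20 without Het_control 2. This average holds unlike parts, since the differences in heterozygotes and in wild type were 0.92 and 0.09 for Cxcl10 and 0.76 and -0.09 for Rsad2.

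Pairs of the 10 genes ranged widely in how closely their levels went together. Over 16 arrays the 45 pairs had a Pearson r between 0.21 and 0.96, with a median of 0.69, and 11 pairs exceeded 0.80. The closest pair was Ifit1 and Ifit3, at 0.96. These r hold the group differences and the low array. On deviations from the group means, without Het_control 2, the median was 0.50, and the closest pair was Irf7 and Usp18 at 0.92. Rsad2 and Cxcl9 did not vary together within groups, at -0.05. Arrays share their normalization, and no p is attached to these values.

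**Figure D4:**
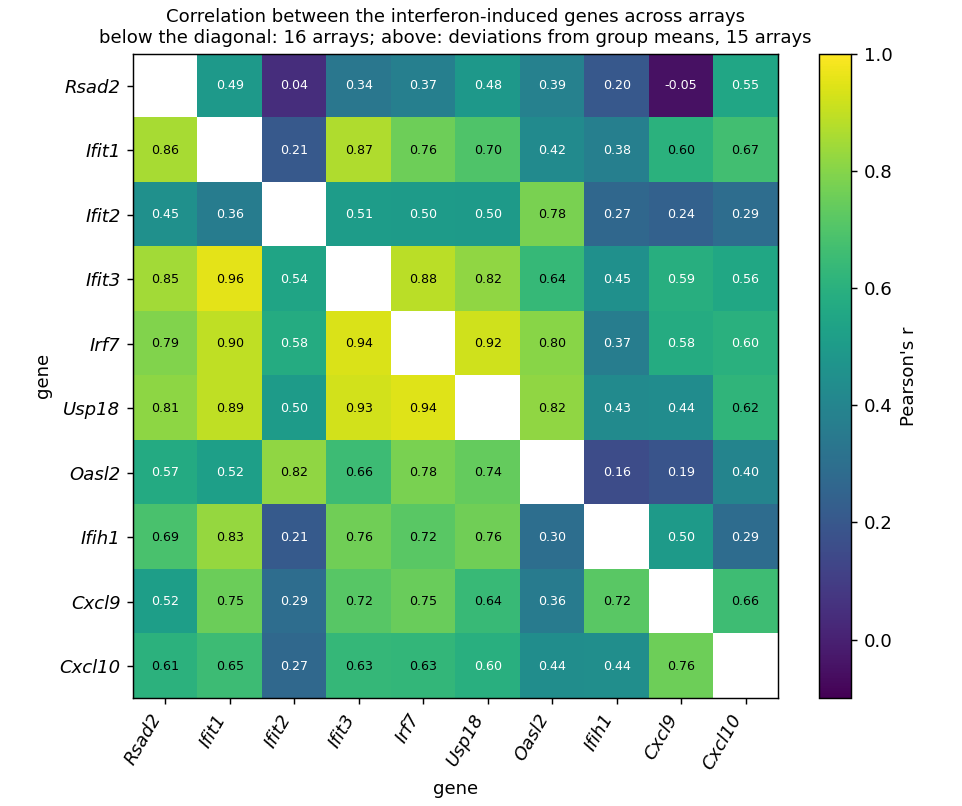
Pearson's r between the 10 interferon-induced genes, with genes on both axes. Below the diagonal r is over 16 arrays, and above it r is over deviations from the group means without Het_control 2. Irf7 and Usp18 reach 0.94 below and 0.92 above the diagonal, and Ifit2 goes most closely with Oasl2, at 0.82 below and 0.78 above the diagonal.

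On the same deviations Oasl2 had r of 0.82 with Usp18, 0.80 with Irf7 and 0.78 with Ifit2. Ifit2 had the lowest median r with the other genes, at 0.29, and Usp18 the highest, at 0.62.

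The genes outside the 10 whose levels went most closely with the mean of the 10 z-scored genes over the 16 arrays were Cd180, Ddx60, Samhd1, Gypc, Ctsb, Lgals3bp, Rnf213, Ifit3b, Slc7a8 and Ddx58. Pearson r was 0.92 for Cd180, a receptor-like protein of B cells and macrophages, and 0.91 for Ddx60, an antiviral helicase. Samhd1, which breaks down deoxynucleotides, and Ddx58, which encodes the RNA sensor Rig-I, also stand on the pathway lists counted here. Ifit3b is a near copy of Ifit3, and signal may be shared between their probe sets. On deviations from group means 3 of these genes were again among the first 10, and 1 when Het_control 2 was left out too; Ddx60 was that gene, with r of 0.89.

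Beyond the 10, the rest of the interferon response was counted from lists. For diet in heterozygotes 1.50% of all genes were called higher and 40.5% had positive differences, which is the background for each list. Of 45 measured other interferon-induced antiviral genes, 3 were called higher on the high-fat diet in heterozygotes and 0 lower, and 39 had positive differences with a median of 0.22. Without Het_control 2 the median was 0.13 and 2 genes were called. The called genes were Tor3a, at 0.38 (limma adjusted p = 0.03435), Lgals3bp, at 0.42 (limma adjusted p = 0.03519), and Dhx58, the Rig-I relative Lgp2, at 0.36 (limma adjusted p = 0.03773), whose call was lost without Het_control 2 (limma adjusted p = 0.05592). On control diet the difference of heterozygotes from wild type had a median of -0.13 in this list, or -0.07 without Het_control 2, with 36 of 45 below 0 and 0 called. At an unadjusted p under 0.05 there were 8 of 45, near the 15.7% of all genes.

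Of 21 measured genes induced by interferon gamma, 0 were called by limma (10 at an unadjusted p under 0.05) and 17 had positive differences with diet in heterozygotes, with a median of 0.19. Without Het_control 2 the median was 0.18 and 1 gene was called, Cd274 (limma adjusted p = 0.04039). The upstream steps were also counted. Of 13 measured interferon genes 0 were called (7 at an unadjusted p under 0.05), and all 13 had differences below 0, with a median of -0.21. Their readings were mostly dim, with a list mean of 7.36 in Het_HFD livers and 7.54 in Het_control livers. The median of all probe sets was 8.02, which the means of Ifnl2, Ifna5, Ifnz, Ifna2 and Ifna14 exceeded. The differences of these genes were -0.22, -0.17, -0.33, -0.05 and -0.25, and none passed the test. With most readings dim and 0 called, a fall of the interferon genes was not shown. With all 16 arrays 40.5% of all genes had differences above 0. With Het_control 2 left out the median of the 13 differences was -0.13 and 2 of them were above 0. Of 11 receptors and signal transducers 0 were called (6 at an unadjusted p under 0.05), with a median of 0.16, or 0.08 without Het_control 2.

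Of 16 nucleic acid sensors and adaptors 2 were called higher, Tlr7, the endosomal sensor of single-stranded RNA, at 0.58 (limma adjusted p = 0.04683), and Aim2, a sensor of cytosolic DNA, at 0.36 (limma adjusted p = 0.04996), with a list median of 0.30. Without Het_control 2 neither was called and the median was 0.18. Tlr7 and Aim2 were dim too, with means of 7.49 and 7.71, against the median of 8.02 over all probe sets. Of 12 negative regulators 0 were called, with a median of 0.14, or 0.07 without Het_control 2. Among these 4 of 12 had an unadjusted p under 0.05, near the 31.6% of all genes. Of 15 NF-kB target genes 1 was called, the cytokine gene Il1b at 0.58, whose call was lost without Het_control 2 (limma adjusted p = 0.0747). The median of that list was 0.01, or 0.06 without that array. A few genes stand in more than 1 of these lists.

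Of 14 measured markers of Kupffer cells and macrophages, 8 were called higher on the high-fat diet in heterozygotes, where 1.50% of all genes were, among them Tyrobp, at 0.74 (limma adjusted p = 0.01181), C1qb, at 0.63 (limma adjusted p = 0.0223), Cd68, at 0.52 (limma adjusted p = 0.02818), and Csf1r, at 0.63 (limma adjusted p = 0.03642). All 14 differences were positive, with a median of 0.55, or 0.47 without Het_control 2. Without that array 5 were called, and Csf1r was not (limma adjusted p = 0.06717). Of markers of resident Kupffer cells, Vsig4 was called, at 0.92 (limma adjusted p = 0.04153, or 0.04812 without Het_control 2). Clec4f, at 0.21 (limma adjusted p = 0.2265), and Timd4, at 0.39 (limma adjusted p = 0.05122), were not.

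The mean level of the macrophage list lay between 10.21 and 10.56 in Het_HFD livers, against 9.42 and 10.02 in Het_control livers. In WT_HFD livers it lay between 9.83 and 10.36, against 10.02 and 10.19 in WT_control livers. The Het_control livers were thus low for this list as for the 10 genes, and its median difference from wild type on control diet was -0.34, or -0.24 without Het_control 2, with 0 called and 8 at an unadjusted p under 0.05. The part of these cells in the differences of the 10 genes was not tested.

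Other cell types were read in the same way. All 8 sinusoidal endothelial markers were below wild type in value in heterozygotes on control diet, with a median of -0.30 (-0.20 without Het_control 2), 0 called and 5 at an unadjusted p under 0.05. The mean of this list lay between 9.998 and 10.49 in Het_control livers, against 10.47 and 10.58 in WT_control livers. Of 7 T cell markers 0 were called for diet in heterozygotes (1 at an unadjusted p under 0.05), with a median of -0.06. The lists of NK cells, monocytes, plasmacytoid and conventional dendritic cells, B cells and neutrophils had 0 called as well, with 0 to 2 at an unadjusted p under 0.05 in each and medians between -0.16 and 0.07. Of the lists of hepatocytes, stellate cells, bile duct cells, pancreas, and gut with gallbladder, 1 gene was called higher for diet in heterozygotes, Lrat of the stellate cells, and 0 lower, and the call of Lrat was lost without Het_control 2 (limma adjusted p = 0.0886). The part of these cells was not tested either.

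**Figure D5:**
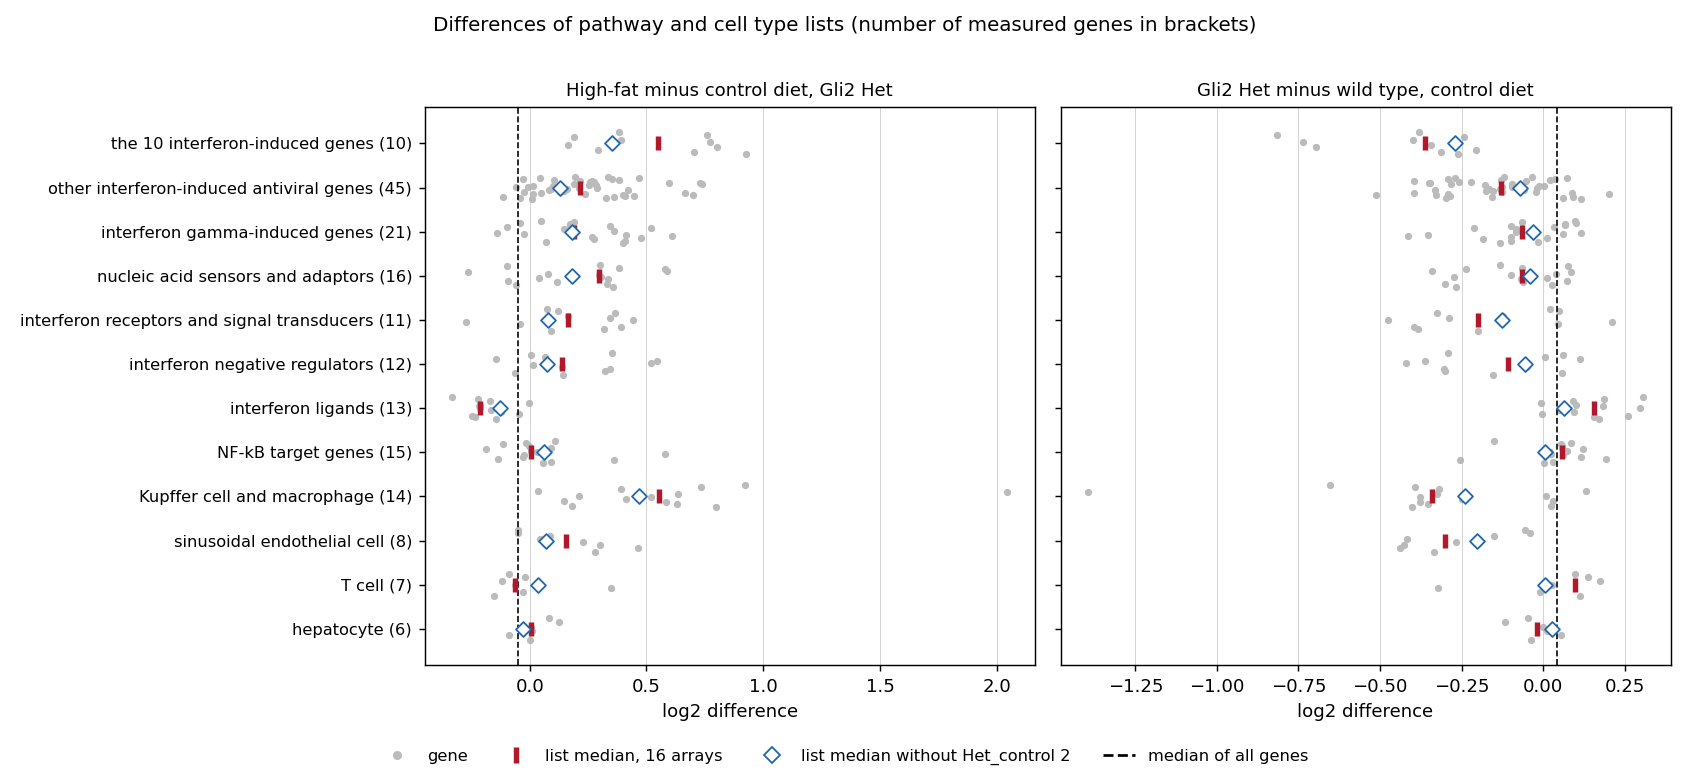
Log2 differences of the genes in each pathway or cell type list, with the number of measured genes in brackets: on the left high-fat minus control diet in Gli2 Het, on the right Gli2 Het minus wild type on control diet. Grey points are genes, red bars are list medians, open diamonds are list medians without Het_control 2, and the dashed line is the median of all genes. The medians of the 10 interferon-induced genes (0.55) and of the Kupffer cell and macrophage list (0.55) are the farthest to the right on the left side.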

How the data were processed

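The authors deposited log2 levels, 1 per probe set. Per the submitters' processing notes these come from RMA, run in Affymetrix Expression Console, with no version or genome build stated. RMA forces a common distribution of intensities on the arrays, so a shift of all transcripts together would be removed. Of 35556 probe sets, 21789 had 1 symbol in the platform annotation, and 19938 genes were kept by the probe set with the highest mean over 16 arrays. Symbols were updated through Entrez numbers with RefSeq GRCm38.p6. A single limma fit (version 3.58.1, R 4.3.3, statmod 1.5.0; no trend, not robust) held all 16 arrays with a mean per group and 12 residual degrees of freedom. P-values were adjusted over all genes by Benjamini-Hochberg. The fit was tested on simulated data with independent noise in each array. These data held no array that stood apart and no effect of title numbers, so they do not test how the calls depend on either. The 10 genes, the lists and the rule for naming genes (all 10, up to 4 called genes per list, the 10 most alike) were chosen with earlier results of these data known. The number of arrays limits the precision.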

Additional observations from a re-analysis of the deposited data

Results flagged for a closer look

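In 4 of 40 groups of 4 livers (10 genes in 4 groups) a single liver lay far from the other 3, where chance alone flags about 1 in 20 groups. These 40 groups are not independent, since all 10 genes were read on the same arrays. An excess over that rate is therefore not shown. Rsad2 read 9.26 in WT_control 3, above the other WT_control livers at 8.62 to 8.73, and this liver was the highest of all 16 for the gene. Ifit1 read 9.31 in WT_control 4, below the other WT_control livers at 9.60 to 9.64. Irf7 read 9.76 in Het_control 2, below the other Het_control livers at 10.24 to 10.29. Usp18 read 9.51 in Het_control 2, below the other Het_control livers at 9.92 to 9.98. Het_control 2 is the array that stood apart across all genes.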

How the results depend on the processing

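For the high-fat diet in heterozygotes, 3 of the 10 genes were called, and 442 of all 19938 genes. The count was 0 with all probe sets adjusted together (95 of 35556 probe sets called) and 0 with the groups compared alone (7 of all genes). It was 0 with arrays of the same title number averaged (171 of all genes) and 8 with that number as a random block (6938). Without dim probe sets, which drops Ifit2, it was 4 of the 9 left, and 608 of 11289 genes. With each array left out it was 0 to 5, and 45 to 3446 of all genes. Over both genotypes none of the 10 was called, and 371 of all genes. It was 1 with arrays centred on their medians (464 of all genes) and 2 with array quality weights (2105). Without dim probe sets it was 1 of 9 (469 of 11289 genes), and with the random block 6 (3703 of all genes). With each array left out it was 0 to 3, and 104 to 1754 of all genes. For genotype on control diet it was 0 to 1 with each array left out, and 0 to 18 of all genes. The cause of these changes was not tested.

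The sign of small uncalled differences turned in some alternatives. For diet in wild type, Cxcl9 was -0.031 after repeated quantile normalization, -0.039 with array weights and -0.010 with averaged arrays. Ifit3 was -0.033 with weights and -0.073 averaged, Usp18 -0.025 averaged, and Irf7 0.038 with the block. For diet over both genotypes, Ifit2 was 0.0076 after quantile normalization, and Oasl2 -0.0097 with weights and -0.014 averaged. For genotype on high-fat diet Ifit3 was 0.021 with weights and 0.039 averaged, and the interaction of Ifih1 was -0.066 with weights.

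With each array left out in turn, these also turned. For diet in wild type Cxcl10 ran between -0.0006 and 0.17, Cxcl9 between -0.12 and 0.083, Ifit3 between -0.11 and 0.19, Irf7 between -0.14 and 0.055, and Rsad2 between -0.15 and 0.058. For diet over both genotypes Ifit2 ran between -0.081 and 0.0056, and Oasl2 between -0.0089 and 0.084. For genotype on high-fat diet Ifit1 ran between -0.18 and 0.081, Ifit3 between -0.16 and 0.14, Irf7 between -0.063 and 0.14, Oasl2 between -0.024 and 0.16, Rsad2 between -0.016 and 0.095, and Usp18 between -0.20 and 0.0018. The interaction of Ifih1 ran between -0.095 and 0.21. No other difference changed sign in any alternative run.

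No paired analysis was possible because the labels give no replicate numbers and the groups compared share at most 1 title number; that number entered only as the random block and the averaging above.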
